A study of Mus musculus with 8 samples.

Results

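The genes described here are 57 genes of cell division, split into a mitotic list of 37 and an S-phase list of 20. The question is how their RNA stood in differentiated muscle cultures that carried an HDAC4 virus or a control virus. The split is not strict, since cyclin A2 of the mitotic list also acts in S phase. B-MYB, whose gene Mybl2 is on the S-phase list, takes part in driving mitotic genes. The 57 genes were chosen by gene symbol, and a probe was used only where the array annotation gave it that gene and no other. Of the 57, 56 had such a probe (Ccnb1, cyclin B1, had none), 55 had a value on some array (the probe of Ube2c, the ubiquitin-conjugating enzyme of the anaphase-promoting complex, had none) and 54 had at least 3 values in each group and were tested. Those 54 were 34 of the 37 mitotic genes and all 20 S-phase genes, out of 8725 named genes tested in the series. Ect2, which activates RhoA at the cleavage furrow, had 2 HDAC4 values and was not tested.

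All 8 RNA samples came from C2C12 cells, an established mouse myoblast line from the C3H strain, 4 from cells stably selected with a retrovirus encoding Neo (the drug resistance marker alone) and 4 from cells selected with a retrovirus for HDAC4, a class IIa histone deacetylase. Both groups had reached 90% confluence and then spent 4 days in 2% horse serum, the low-serum medium in which myoblasts leave the cell cycle and fuse. Every array carried cell RNA in the Cy5 channel and a murine reference RNA in the Cy3 channel, which the labelling protocol calls liver RNA. A value is the log2 ratio of cells to reference after each array's median was set to 0. The direction of the ratio is likely rather than stated, since it was read from the very high ratios of muscle genes. The labels do not say that samples of a group were separate cultures, so p-values reflect only how far these samples lay apart, and that spread could be technical.

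A cell enters S phase when cyclin E and CDK2 release E2F factors, which switch on the genes of the replication fork and of nucleotide supply. It enters mitosis when cyclin A and cyclin B activate CDK1, and FOXM1 and B-MYB bound to MuvB drive the late genes whose promoters often carry CCAAT boxes and a cell cycle homology region. The Aurora and Polo kinases then build the spindle, the checkpoint proteins hold back CDC20 until every kinetochore is attached, and the ring of cytokinesis closes. Myotubes are post-mitotic, whereas differentiated C2C12 cultures also hold mononucleated reserve cells that left the cycle reversibly and may hold cells that still divide. In RNA from a whole culture, fewer cells of a type and less RNA per cell cannot be told apart.

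The 4 Neo arrays had between 19248 and 22193 probes with a value and the 4 HDAC4 arrays between 17014 and 18521, of 31769 probes. Of the 64 probes of the cell division genes, 59 to 63 had a value on each array, and 492 of 512 possible values were present. The median over the 7 muscle markers with all 8 values lay between 8.38 and 8.79 on the 8 arrays, but single members fell short of it, with Actn2 at 0.67 on HDAC4 array 2 and Casq2 at 1.52 and 2.49 on HDAC4 arrays 2 and 3. The median over the 8 myoblast and reserve cell markers with all 8 values lay between -1.86 and -1.16, Myod1 and Myf5 stood above the reference wherever they had a value, and the probe of Pax7 had none. Of the bone markers, Sp7 and Ibsp had a probe and no value, and Alpl lay between -3.66 and -1.99 on 7 arrays. Of the fat cell markers, Adipoq and Plin1 had a probe and no value, Fabp4 had 3 values, Pparg lay between -0.95 and 0.36 and Lpl between -3.97 and -2.61. The liver genes Apoa1, Ttr, Apoc3, Serpina1a and Fgb gave 0 to 4 values each, all between -0.01 and 1.04, so defining liver genes showed no low ratios against a reference that the protocol calls liver. No named probe measured Hdac4, so the virus labels were not checked on their target.

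All 54 tested genes had a mean ratio below the reference. The median over the mitotic genes was -2.84, which is 7.14-fold below the reference, and 31 of 34 lay under -2. The S-phase genes had a median of -2.14, 4.39-fold below the reference, and 12 of 20 lay under -2. Across all 14734 tested features 50.1% lay below 0 and 4.83% under -2. Among mitotic genes the means ran from -4.37 for Mki67, the gene of the Ki-67 proliferation antigen, to -0.62 for Bub3, a checkpoint protein. Among S-phase genes they ran from -3.44 for Uhrf1, which recruits the maintenance DNA methyltransferase to new DNA, to -0.85 for Cdk2. These are ratios to a reference and not amounts of RNA. Of 48 other mitotic genes taken from a second list, 36 were tested and all lay below 0, with a median of -2.57. Of 51 other S-phase genes, 43 were tested, all below 0, with a median of -2.38.

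**Figure D1:**
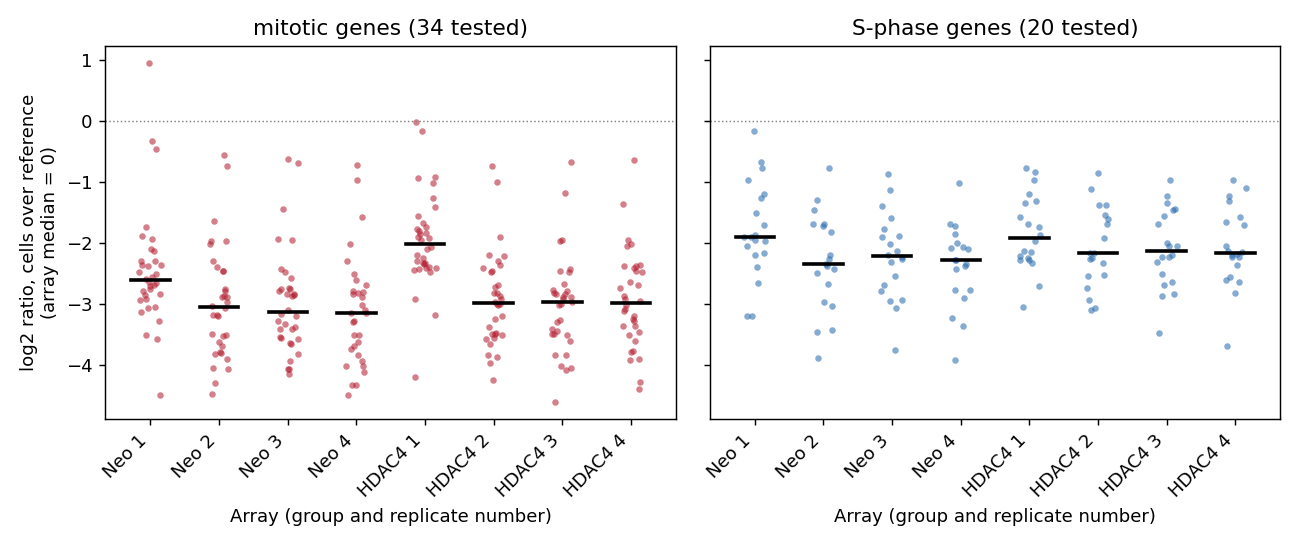
Log2 ratio of cells to reference (vertical axis, array median at 0) of each tested mitotic gene (left, 34 genes) and S-phase gene (right, 20 genes) on each of the 8 arrays; a point is 1 gene and the bar is the median of the genes plotted. The mitotic genes sit highest on HDAC4 replicate 1 and next on Neo replicate 1, and the single mitotic point near 1 on Neo replicate 1 is Foxm1 at 0.96.

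The promoters of the genes are shown because mitotic and S-phase genes are known for different promoter elements. RefSeq promoters on assembly GRCm38.p6, from 250 bases before to 50 after the start, were matched by symbol for 29 of the 37 mitotic and 19 of the 20 S-phase genes. They were searched on both strands for CCAAT boxes, for TTTGAA, the core of the cell cycle homology region, and for the E2F words TTTCCCGC, TTTGGCGC and TTTCGCGC. A word on the opposite strand appears as its reverse complement. The lines below give 150 bases before to 30 after the start, 5′ to 3′ on the gene's strand, for 4 mitotic and 2 S-phase genes whose RNA is described further on. Capitals mark matches of any of these words.
Cdk1, chr10:69352883-69353062, minus strand: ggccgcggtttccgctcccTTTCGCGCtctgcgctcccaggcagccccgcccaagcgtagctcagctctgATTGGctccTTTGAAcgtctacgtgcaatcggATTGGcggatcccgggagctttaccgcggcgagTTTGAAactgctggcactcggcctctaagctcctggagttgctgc
Cdc20, chr4:118437314-118437493, minus strand: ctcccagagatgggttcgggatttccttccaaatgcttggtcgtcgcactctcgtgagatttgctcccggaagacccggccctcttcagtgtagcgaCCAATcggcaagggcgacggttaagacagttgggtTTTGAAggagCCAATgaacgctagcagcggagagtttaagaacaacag
Cenpa, chr5:30666736-30666915, plus strand: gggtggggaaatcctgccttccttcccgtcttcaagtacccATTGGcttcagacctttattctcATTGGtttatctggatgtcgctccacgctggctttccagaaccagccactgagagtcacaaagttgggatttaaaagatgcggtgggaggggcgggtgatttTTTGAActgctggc
Mki67, chr7:135716350-135716529, minus strand: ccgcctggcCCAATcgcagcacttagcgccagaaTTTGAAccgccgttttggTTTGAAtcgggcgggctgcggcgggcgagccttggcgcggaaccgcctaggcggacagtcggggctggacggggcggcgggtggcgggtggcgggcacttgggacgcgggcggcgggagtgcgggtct
Pola1, chrX:93632126-93632305, minus strand: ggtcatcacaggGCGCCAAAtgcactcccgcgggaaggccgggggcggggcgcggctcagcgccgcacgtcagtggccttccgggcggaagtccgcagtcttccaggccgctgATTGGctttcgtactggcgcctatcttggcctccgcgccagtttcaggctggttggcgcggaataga
Rrm2, chr12:24708104-24708283, plus strand: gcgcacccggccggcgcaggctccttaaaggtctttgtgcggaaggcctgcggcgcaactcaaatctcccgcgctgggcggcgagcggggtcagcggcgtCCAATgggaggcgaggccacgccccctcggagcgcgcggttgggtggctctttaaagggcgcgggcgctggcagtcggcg

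The Cdk1 window held 2 CCAAT matches, 2 TTTGAA matches and 1 E2F match, while those of Cdc20 and Cenpa held 2 CCAAT matches and 1 TTTGAA match each. The Mki67 window held 1 CCAAT and 2 TTTGAA matches. Neither S-phase window held TTTGAA. Over the 32 promoters of the mitotic genes in the full 300-base window, 84.4% held CCAAT, 75% held TTTGAA, 68.8% held both and 3.12% held an E2F word. Over the 23 promoters of the S-phase genes the shares were 47.8%, 8.7%, 4.35% and 26.1% in the same order. Over all 32851 promoters of the table they were 37.4%, 17.9%, 6.95% and 1.84%. In the promoters of these genes 2 matches overlapped another. A match is a string of letters and not a shown binding site.

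No cell division gene passed the test between HDAC4 and Neo cultures. None of the 34 mitotic and none of the 20 S-phase genes reached an adjusted p of 0.05 (limma, Benjamini-Hochberg over all 14734 features), where 22 features, or 0.149%, did. Before adjustment, 0 mitotic and 3 S-phase genes had a p under 0.05, as did 1073 of all features. More genes lay higher than lower in HDAC4: 28 of 34 mitotic genes, with a median difference of 0.26, and 13 of 20 S-phase genes, with a median of 0.19. Of all features 49.5% lay higher, with a median of 0.00. Of 669 other features with a mean under -2, 55.8% lay higher, with a median of 0.05. No gene of either list with all 8 values (31 mitotic and 17 S-phase) had groups that did not overlap, against 4.68% of all such features. Mybl2 and Lig1, with 7 values each, did have separate groups, and the share among all features with 7 values was not computed. In the second lists 25 of 36 other mitotic and 30 of 43 other S-phase genes lay higher in HDAC4, and none passed the adjusted threshold in limma (3 genes of each had an unadjusted p under 0.05). Groups that did not overlap over 8 values occurred in 0 of 29 other mitotic genes and in 2 of 40 other S-phase genes. The latter share lies near the 4.68% of all features with 8 values. The 2 genes were Mcm2 and Mcm3, subunits of the replicative helicase, with every HDAC4 value above every Neo value.

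Markers of cell state are given beside these counts, and their part in them was not tested. Of the 8 tested muscle markers 6 lay lower in HDAC4, with a median of -0.17 and the lowest values in Casq2 at -3.20 and Actn2 at -2.44. Of the 9 tested myoblast and reserve cell markers 6 lay lower, with a median of -0.25 and Id1 lowest at -0.70. Neither list had a called marker over 8 arrays in limma (1 muscle marker and 2 of the others had an unadjusted p under 0.05). Without both arrays numbered 1, Casq2 at -4.66 (adjusted p = 0.0343 in limma) and Id1 at -0.78 (adjusted p = 0.014 in limma) were called lower, where 2.16% of all features were called. Casq2 rests there on HDAC4 values of 1.52 and 2.49, with the last HDAC4 array missing. With number 1 as a batch, 1 myoblast or reserve cell marker was called lower (adjusted p = 0.0259 in limma), beside 0.713% of all features called.

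Ccna2, the gene of cyclin A2, which pairs with CDK2 in S phase and with CDK1 in early mitosis, had the smallest p of the mitotic genes. On Neo arrays 1 to 4 it stood at -3.13, -4.04, -3.81 and -3.94, and on HDAC4 arrays 1 to 4 at -2.34, -3.49, -3.41 and -3.28. All HDAC4 arrays but the first lay below Neo array 1 and above the other Neo arrays, so the groups overlapped through Neo array 1. The difference was 0.60 ± 0.29 (SE), with a 95% interval of -0.04 to 1.25 and an adjusted p of 0.73 in limma. Cdk1, the kinase that drives entry into mitosis, stood at -3.57, -3.82, -3.93 and -4.01 on the Neo arrays and at -2.48, -3.83, -3.61 and -3.90 on the HDAC4 arrays. HDAC4 array 1 stood far above all other arrays, and the rest overlapped. Its difference was 0.38 ± 0.29 (SE, interval -0.28 to 1.04).

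The spindle genes Tpx2 and Aurka came next. Tpx2, which activates Aurora A on spindle microtubules, stood at -3.28, -3.69, -3.64 and -3.74 on the Neo arrays and at -2.40, -3.20, -3.49 and -3.46 on the HDAC4 arrays. Aurka, the Aurora A kinase itself, stood at -2.75, -3.50, -3.28 and -3.69 on the Neo arrays and at -2.24, -3.02, -3.01 and -3.12 on the HDAC4 arrays. In both genes array 1 was the highest of the Neo group and again of the HDAC4 group, and the groups overlapped. The differences were 0.45 ± 0.24 (SE) for Tpx2 and 0.46 ± 0.25 (SE) for Aurka, with adjusted p-values of 0.779 and 0.79 in limma. Incenp, the scaffold of the chromosomal passenger complex, stood at -2.29, -2.45, -2.75 and -2.69 in Neo and at -2.29, -2.40 and -2.05 on HDAC4 arrays 1, 2 and 4. The values of its groups overlapped at the highest Neo array, and the difference was 0.30 ± 0.17 (SE, adjusted p = 0.803 in limma).

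Bub1b, the gene of the checkpoint protein BubR1, differed in the other direction. It stood at -1.93, -2.02, -1.44 and -2.29 on the Neo arrays and at -1.85, -3.57, -2.81 and -1.95 on the HDAC4 arrays. HDAC4 arrays 2 and 3 were the lowest and the other HDAC4 arrays lay inside the Neo range. The difference was -0.63 ± 0.37 (SE, adjusted p = 0.808 in limma), the lowest of the mitotic genes. The other mitotic genes below 0 were Foxm1, Cenpe, Cdc25b, Kif2c and Cenpf. Foxm1 was at -0.54 over all arrays and at 0.38 without the Neo array 1 value, so its sign rests on that value.

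The customary proliferation markers Mki67 and Pcna were close to level between the groups, although the arrays allow a moderate difference. Mki67 stood at -4.49, -4.48, -4.07 and -4.49 in Neo and at -4.19, -4.25, -4.60 and -4.40 in HDAC4, a difference of 0.03 ± 0.15 (SE, interval -0.31 to 0.37). Pcna, the sliding clamp of the replication fork, stood at -1.70, -2.19, -2.22 and -2.28 in Neo and at -1.68, -2.32, -2.22 and -2.35 in HDAC4, a difference of -0.04 ± 0.19 (SE, interval -0.48 to 0.39). In Pcna the first array of each group was the high one, and in Mki67 it was not. Top2a, the topoisomerase that untangles sister chromatids, stood at -3.06, -4.06, -4.06 and -4.33 in Neo and at -3.18, -3.87, -4.04 and -3.79 in HDAC4, with a difference of 0.16 ± 0.29 (SE, interval -0.49 to 0.80). The signs for Mki67, Pcna and Top2a changed when single arrays were left out.

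The 3 S-phase genes with the smallest p were all higher in HDAC4. Mybl2, the gene of B-MYB, stood at -2.39, -3.03, -2.94 and -2.90 in Neo and at -2.27, -2.05 and -1.70 on HDAC4 arrays 1, 3 and 4. Every HDAC4 value lay above every Neo value, with HDAC4 array 2 missing. The difference was 0.81 ± 0.21 (SE), with an adjusted p of 0.328 in limma and an exact two-sided permutation p of 0.0571. Lig1, the ligase that seals Okazaki fragments, stood at -3.20, -3.46 and -3.06 on Neo arrays 1 to 3 and at -2.70, -2.74, -2.69 and -2.56 on the HDAC4 arrays. Its groups did not overlap either. The difference was 0.56 ± 0.15 (SE, adjusted p = 0.328 in limma; exact two-sided permutation p = 0.0286, the smallest that 3 against 4 arrays can give). Cdc45, part of the helicase at the fork, stood at -1.50, -1.71, -1.77 and -2.08 in Neo and at -1.57, -1.38, -1.34 and -1.23 in HDAC4. HDAC4 array 1 fell inside the Neo range, and the difference was 0.38 ± 0.15 (SE, adjusted p = 0.624 in limma).

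Prim1 and Fen1 completed the 5 S-phase genes of smallest p. Prim1, the catalytic primase subunit, stood at -1.86, -1.90 and -2.43 on Neo arrays 1, 3 and 4 and at -2.28, -2.25, -2.30 and -2.82 in HDAC4, a difference of -0.35 ± 0.21 (SE, adjusted p = 0.822 in limma). Fen1, the flap endonuclease of Okazaki fragments, stood at -1.90, -2.49, -2.30 and -2.37 in Neo and at -1.87, -1.91, -2.23 and -2.14 in HDAC4, a difference of 0.22 ± 0.16 (SE, adjusted p = 0.87 in limma). The groups of both genes overlapped. The other 15 S-phase genes had differences between -0.28 for Cdc25a, the phosphatase that activates CDK2, and 0.46 for Tk1, thymidine kinase.

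**Figure D2:**
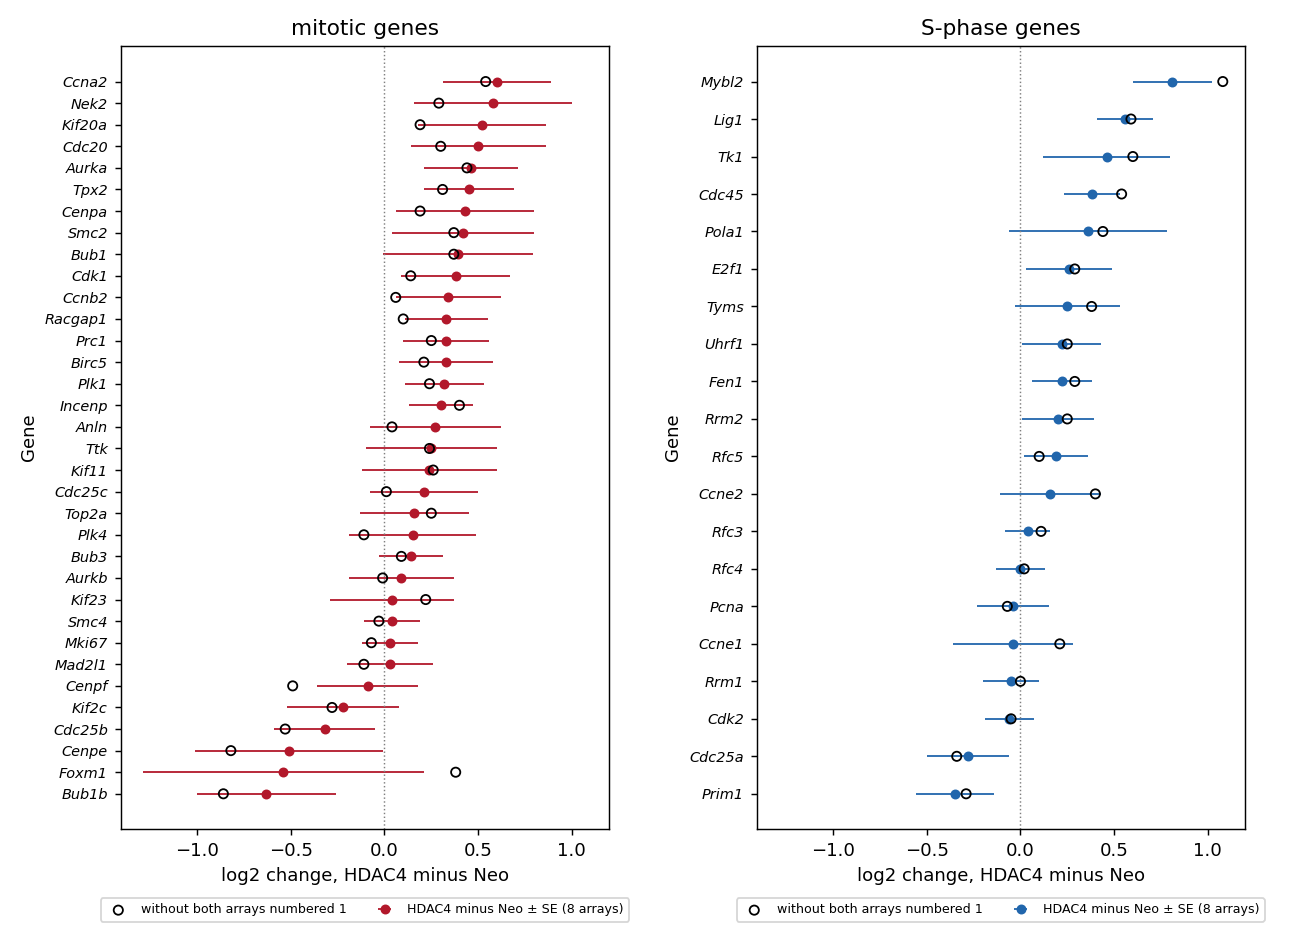
Difference HDAC4 minus Neo on the log2 scale (horizontal axis) for each tested mitotic gene (left) and S-phase gene (right); filled points are the fit over 8 arrays with its SE, open circles the difference without both arrays numbered 1. Most points lie to the right of 0, none passed the adjusted threshold over 8 arrays, and Mybl2 reached 1.08 without the arrays numbered 1.

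Part of the spread within both groups followed the replicate number 1. With a term for the arrays numbered 1 the fit called 105 features, or 0.713%, between HDAC4 and Neo. An unadjusted p under 0.05 in limma occurred in 12 of the 54 genes and in 2039 of all 14734 features. None of the 54 genes was called. Ccna2 came nearest, with an adjusted p of 0.0544 in limma and the same difference of 0.60. Without both arrays numbered 1 the fit called 318 features, or 2.16%, and 1 of the 54 genes, Mybl2, at 1.08 ± 0.14 (SE, adjusted p = 0.0292 in limma, 3 Neo and 2 HDAC4 values). In that fit 24 of 34 mitotic and 15 of 20 S-phase genes lay higher in HDAC4, with medians of 0.19 and 0.25. Of all features 48.4% lay higher there, with a median of -0.01. Leaving out HDAC4 array 1 alone brought the mitotic median to 0.01, and leaving out Neo array 1 alone brought it to 0.38. Taken by replicate number, the mitotic median of HDAC4 minus Neo was 0.57 for number 1, 0.12 for number 2, 0.02 for number 3 and 0.29 for number 4. The S-phase median was -0.02, 0.13, 0.07 and 0.23 in the same order.

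Mitotic genes were higher on the 2 arrays numbered 1 than on the other 6. The labels give no meaning to the replicate numbers, and these arrays were set against the others because earlier results of the same data had shown them apart. In a limma fit with group and a term for number 1, all 34 mitotic genes lay higher, with a median of 0.80, and 19 were called higher at an adjusted p of 0.05. Of the S-phase genes 18 of 20 lay higher, with a median of 0.35, and 6 were called higher. Across all 14622 features of that fit 53.4% lay higher, 21% were called, 10.3% as higher, and the median was 0.04. Among 669 other features with a mean under -2, the ratio range of most mitotic genes, the median was 0.12 and 12.4% were called higher. Both arrays numbered 1 stood above all of the other 6 in 19 of 31 mitotic genes and 10 of 17 S-phase genes with 8 values, against 18.7% of all such features.

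Genes of mitotic entry gave 3 calls of 6 and the mitotic kinases 4 of 5, where 10.3% of all features were called higher. Ccna2, with the values given above, was 0.93 ± 0.13 (SE) higher on the arrays numbered 1, a 1.90-fold difference (adjusted p = 0.00343 in limma). Cdk1 was higher by 0.83 ± 0.20 (SE, adjusted p = 0.0247 in limma) and Aurka by 0.78 ± 0.13 (SE, adjusted p = 0.00758 in limma). Aurkb, the kinase of the passenger complex, stood at -2.79, -3.53, -3.33 and -3.50 in Neo and at -2.39, -3.38, -3.51 and -3.50 in HDAC4. The first array of each group stood above all 6 others, by 0.87 ± 0.13 (SE, adjusted p = 0.00519 in limma). Nek2, a kinase that separates the centrosomes, stood at -2.37, -3.20, -3.16 and -2.84 in Neo and at -0.91, -2.82, -2.89 and -2.63 in HDAC4. HDAC4 array 1 was far above the rest and Neo array 1 next, with a difference of 1.28 ± 0.24 (SE, adjusted p = 0.0106 in limma). Cdk1 and Nek2 lost their calls without HDAC4 array 1, at 0.36 and 0.70, and Cdk1 was at 1.3 without Neo array 1. Ccna2, Aurka and Aurkb lay between 0.80 and 1.06, 0.73 and 0.83, and 0.66 and 1.08 when single arrays were left out. Without Neo array 1 or HDAC4 array 1 the term for number 1 rests on a lone array. Calls kept or lost in such fits, here and below, assume that a lone array varies like the others.

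Of the spindle checkpoint and anaphase genes 4 of 6 were called, and all 3 spindle genes were, beside 10.3% of all features called higher. Bub1, the kinase that gathers checkpoint proteins at kinetochores, stood at -2.64, -3.90, -3.54 and -4.32 in Neo and at -2.20, -3.56, -3.49 and -3.60 in HDAC4. The first arrays stood clear of the others in both groups, by 1.32 ± 0.19 (SE), a 2.49-fold difference (adjusted p = 0.00412 in limma). Cdc20, the activator of the anaphase-promoting complex, stood at -2.92, -3.62, -3.58 and -3.84 in Neo and at -1.83, -3.49, -3.29 and -3.36 in HDAC4, higher by 1.15 ± 0.18 (SE, adjusted p = 0.00591 in limma). Kif11, the motor that pushes spindle poles apart, stood at -2.58, -3.79, -3.40 and -4.01 in Neo and at -2.40, -3.24, -3.84 and -3.36 in HDAC4, higher by 1.12 ± 0.20 (SE, adjusted p = 0.00947 in limma). Kif2c, a kinesin that takes apart microtubule ends at kinetochores, stood at -1.74, -2.39, -2.47 and -2.80 in Neo and at -1.76, -2.99, -2.79 and -2.73 in HDAC4. Its first arrays were nearly equal and above all 6 others, by 0.94 ± 0.15 (SE, adjusted p = 0.00591 in limma). In Cdc20 and Kif11 too, the first array of each group lay above all others. Cdc20 was at 0.75 without HDAC4 array 1, still called, and Kif11 lost its call without Neo array 1 (1.08) and without HDAC4 array 1 (1.16).

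The centromere, cytokinesis and chromosome genes gave calls in 1 of 5, 2 of 5 and 2 of 4, beside 10.3% of all features called higher. Cenpa, the histone variant that marks the centromere, stood at -3.50, -4.29, -4.14 and -4.11 in Neo and at -2.33, -3.97, -4.08 and -3.92 in HDAC4, higher on the first arrays by 1.17 ± 0.20 (SE, adjusted p = 0.00795 in limma). Anln, the anillin scaffold of the contractile ring, stood at -3.04, -3.80, -3.55 and -3.62 in Neo and at -2.07, -3.65, -3.44 and -3.77 in HDAC4, higher by 1.08 ± 0.21 (SE, adjusted p = 0.0108 in limma). Smc2, a core subunit of condensin, stood at -2.29, -3.18, -3.41 and -3.51 in Neo and at -1.73, -3.48, -2.83 and -2.68 in HDAC4, higher by 1.17 ± 0.21 (SE, adjusted p = 0.0089 in limma). In these 3 genes both first arrays lay above all others, with HDAC4 array 1 the highest. Without that array Cenpa was at 0.68 and still called, while Anln at 0.62 and Smc2 at 1.08 lost their calls. Top2a was higher by 0.90 ± 0.14 (SE, adjusted p = 0.00587 in limma), with Neo array 1 the highest. Mki67 was the exception among the customary markers, with a difference of 0.04 ± 0.17 (SE, adjusted p = 0.87 in limma). The remaining called mitotic genes, Cdc25b, Plk4, Bub3, Mad2l1, Tpx2 and Prc1, had differences between 0.42 and 0.94. All 6 lost their call without HDAC4 array 1, where they lay between 0.31 and 0.50. Bub3 lost it in 7 of the 8 fits without 1 array, Plk4 in 4 and Cdc25b in 2. Plk4 and Cdc25b were at 1.47 and 1.17 without Neo array 1. Those that were not called lay between 0.04 for Mki67 and 1.84 for Foxm1.

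**Figure D3:**
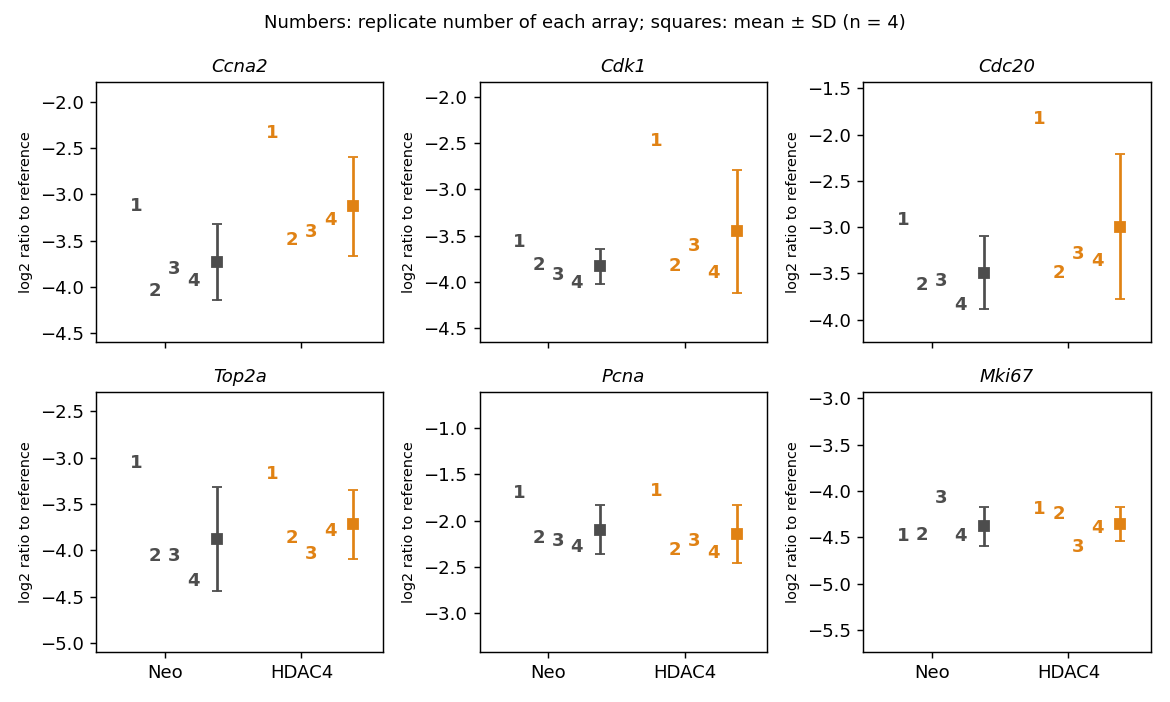
Log2 ratio of cells to reference (vertical axes) for 6 genes, with each array drawn as its replicate number in the Neo and HDAC4 groups, and squares with bars for the mean ± SD (n = 4). In Ccna2, Cdk1, Cdc20, Top2a and Pcna the digit 1 is the highest of each group, and in Mki67 it is not in Neo, where number 3 at -4.07 is the highest.

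The S-phase calls were 2 of 6 genes of S-phase entry, 2 of 9 of the replication fork and 2 of 4 of nucleotide supply. Across all features 10.3% were called higher and 21% in either direction. Uhrf1 was not called (0.42, adjusted p = 0.142 in limma). Pola1, the catalytic subunit of DNA polymerase alpha, stood at -0.97, -2.37, -2.26 and -2.77 in Neo and at -0.83, -2.26, -1.69 and -2.13 in HDAC4, higher on the first arrays by 1.35 ± 0.19 (SE, adjusted p = 0.00447 in limma). A second Pola1 probe with 6 values gave -0.30 for the same difference, so its probes disagreed. Pcna was higher by 0.57 ± 0.11 (SE, adjusted p = 0.00995 in limma), with its probes at 0.69 and 0.45. Ccne1, cyclin E1, stood at -0.16, -1.69, -1.39 and -1.68 in Neo and at -0.96, -1.38, -1.44 and -1.3 in HDAC4, higher by 0.92 ± 0.21 (SE, adjusted p = 0.0205 in limma). Ccne2, cyclin E2, stood at -0.76, -1.81, -2.02 and -2.10 in Neo and at -1.34, -1.69, -1.45 and -1.57 in HDAC4, higher by 0.72 ± 0.21 (SE, adjusted p = 0.043 in limma). Neo array 1 was the highest array in both cyclin E genes, and HDAC4 array 1 stood less far from its group. Both lost their call without Neo array 1, where Ccne1 was at 0.42 and Ccne2 at 0.23, and without HDAC4 array 1 they were at 1.43 and 1.22. Ccne2 lost it in 6 of the 8 fits without 1 array.

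Of the nucleotide supply genes, Rrm2 and Tk1 were called. Rrm2, the small subunit of ribonucleotide reductase, stood at -1.26, -1.69, -1.88 and -2.0 in Neo and at -1.19, -1.61, -1.56 and -1.65 in HDAC4, higher on the first arrays by 0.50 ± 0.12 (SE, adjusted p = 0.0237 in limma). Tk1 stood at -2.20, -3.42, -2.95 and -3.91 in Neo and at -2.15, -3.06, -2.83 and -2.60 in HDAC4, higher by 0.95 ± 0.25 (SE, adjusted p = 0.0315 in limma). The first arrays of both groups lay above the rest in these genes. Rrm2 lost its call without Neo array 1 (0.42), HDAC4 array 1 (0.59) or HDAC4 array 4 (0.50), and Tk1 lost it in 5 of the 8 fits without 1 array, with values between 0.68 and 1.23. The 3 tested subunits of the clamp loader, Rfc3, Rfc4 and Rfc5, had differences of -0.01, 0.21 and 0.35 and were not called. Nor were Mybl2 at 0.12, Lig1 at 0.01 and Cdc45 at 0.05, the genes with the smallest p between HDAC4 and Neo. E2f1 lay lower on the first arrays, by -0.56 ± 0.18 (SE, adjusted p = 0.0607 in limma), with its probes at -0.92 and -0.20.

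The second lists behaved alike in direction. Of 36 other mitotic genes 31 lay higher on the arrays numbered 1, 14 were called higher and 1 lower, with a median of 0.64. Of 43 other S-phase genes 35 lay higher and 9 were called higher, with a median of 0.24. The shares called higher were 38.9% of the other mitotic and 20.9% of the other S-phase genes, beside 10.3% of all features. Of 8 muscle markers 2 were called higher (Tnnc2 at 0.69 and Casq2 at 3.64), with a median of 0.28, while Tnnt3 at -0.55 and Des at -0.46 lay lower. Of 9 myoblast and reserve cell markers 2 were called higher, Id1 at 0.40 and Id2 at 1.17, which encode inhibitors of MyoD partners, with a median of 0.04. These shares called higher, 25% and 22.2% of lists of 8 and 9 genes, stand beside 10.3% of all features called higher and 21% called in either direction. The medians of the muscle markers on the first arrays were 8.39 and 8.53, within the range of the other 6. The part of these markers, or of handling that followed the number, in the change of the mitotic genes was not tested.

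The first arrays of Neo and HDAC4 stood at unlike distances from the other arrays of their group. Within Neo, array 1 minus the mean of the others had a median of 0.41 over the mitotic genes and 0.43 over the S-phase genes. Within HDAC4 the medians were 1.0 and 0.23. Thus 33 of 34 mitotic genes lay higher on HDAC4 array 1 and 30 of 34 on Neo array 1, while the S-phase genes did so in 15 and 19 of 20. The test of this difference, a limma interaction of group with number 1, had 1 array in each first-numbered cell, and its p-values assume that a lone array varies like the others. It called 60 of 14044 features, or 0.427%, and 1 of the 54 genes. Its median was 0.46 over mitotic genes, with 29 of 34 above 0, and -0.19 over S-phase genes, with 3 of 20 above 0. Over all features the median was 0.00, with 49.9% above 0. Other features with a mean under -2 had a median of 0.14, with 57.1% above 0. In the second lists the median was 0.21 over other mitotic genes (25 of 36 above 0) and -0.07 over other S-phase genes (19 of 42). Array 1 minus the others had a median of 0.29 over other S-phase genes in both groups. The lower S-phase median within HDAC4 was thus not seen in that list.

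The called gene was Foxm1, the forkhead factor that drives mitotic gene expression. It stood at 0.96, -2.29, -2.83 and -3.02 on the Neo arrays and at -2.32, -2.20, -2.46 and -2.35 on the HDAC4 arrays. Neo array 1 alone stood above the reference, and the HDAC4 arrays were close together. The interaction of -3.66 (adjusted p = 0.0254 in limma) therefore rests on 1 value of 1 probe, and no repeat of that array tells whether the groups differ. The difference on the arrays numbered 1 was 1.84 ± 0.66 (SE, adjusted p = 0.0784 in limma), and 0.01 ± 0.27 (SE, adjusted p = 0.977 in limma) when the Neo array 1 value was left out. No other of the 54 genes lay above the reference on any array.

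**Figure D4:**
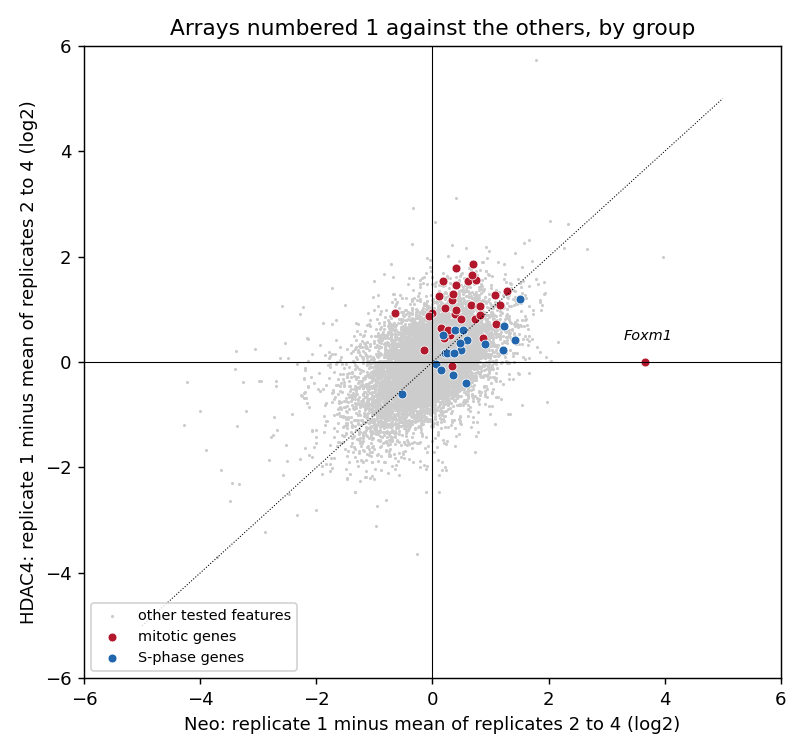
Array 1 minus the mean of arrays 2 to 4 on the log2 scale, within Neo (horizontal axis) and within HDAC4 (vertical axis), for each tested feature; red points are mitotic genes, blue points S-phase genes, grey points all others, and the dotted line marks equal differences. Most mitotic genes lie above the dotted line, with medians of 0.41 and 1.0 on the axes, and most S-phase genes below it, with Foxm1 far to the right.

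Among 7864 named genes with 8 values that belong to neither list, those most like the mean of the 31 mitotic genes over the 8 arrays were Trmt1 (Pearson r = 0.996), Ube2b (0.99), Sgsm1 (0.987), Txnrd1 (0.986) and Prdx1 (0.984). Those most like the mean of the 17 S-phase genes were Naf1 (0.993), Srf (0.99), Polr2d (0.987), Rnf187 (0.985) and C1qbp (0.983). These are descriptions over 8 arrays that share the reference RNA. Trmt1 stood at 0.08, -0.29, -0.30 and -0.42 in Neo and at 0.60, -0.30, -0.30 and -0.23 in HDAC4, so the likeness lay mainly in the first arrays. Naf1 stood at -0.42, -0.77, -0.71 and -0.85 in Neo and at -0.51, -0.67, -0.69 and -0.66 in HDAC4, again with the first array of each group the highest.

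The promoter words occurred in mitotic genes with and without a call on the arrays numbered 1. Of the 16 called genes with a promoter 12 held CCAAT and 11 held TTTGAA, and of the 10 tested genes without a call 9 held CCAAT and 8 held TTTGAA. Mki67, whose printed promoter carries both words as those of Cdk1, Cdc20 and Cenpa do, was not called. Of the 5 called S-phase genes with a promoter 3 held CCAAT, none held TTTGAA and 1 held an E2F word.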

How the data were processed

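Per the labels' protocols, total RNA was DNase treated, primed with oligo dT for Cy5 labelling and hybridised with a Cy3 reference. The deposited values are log2 ratios by the authors, 1 for each of 31769 probes on an array. The sources used here do not state how they normalized or filtered them, or why values are missing. The log base and direction are inferred. The annotation gave 1 gene to 18976 probes, and 12793 others were kept as unnamed features. Symbols were updated through RefSeq (GRCm38.p6).

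Array medians were set to 0. The value of a gene was the mean over its probes that shared the highest number of values. Features with at least 3 values in each group were fitted by lmFit and eBayes of limma 3.58.1 under R 4.3.3, checked on simulated data, and adjusted with the Benjamini-Hochberg method at 0.05. Intervals are 95% and come from the moderated fit. Exact permutation tests over arrays were two-sided.

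The genes, lists and tests were chosen with earlier results of these data known. Values by array were given for customary proliferation genes (Ccnb1 had no probe), the 5 genes of smallest p in each list and comparison, and called genes up to 12 a list by p, while Foxm1 was singled out for its interaction. Deviations from the group mean correlated between same-numbered arrays (r = 0.526, 0.306, 0.198 and 0.115 for numbers 1 to 4 over 13086 features), above the limit of 0.1 for pairing in every case. Differently numbered pairs without a number 1 reached 0.264, above the values of numbers 3 and 4. Passing the limit therefore does not show pairing for those numbers. Alternatives covered centring, quantile normalization, missing values, probe summary, reference floor, single arrays, replicate block and empirical Bayes settings.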

Additional observations from a re-analysis of the deposited data

Results flagged for a closer look

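In 103 sets of 4 arrays (the values of 1 gene in 1 group), 16 had an array whose gap to its nearest neighbour was large for the range of the set by Dixon's criterion. Chance gives about 1 in 20 such sets where the sets are independent. These sets share the same arrays, so 1 shifted array can mark many of them, and the count is no test. HDAC4 replicate 1 was the array that stood apart in 11 of them: Ccnb2 at -1.66, Aurka at -2.24, Aurkb at -2.39, Plk4 at -0.93, Nek2 at -0.91, Bub1 at -2.20, Bub3 at -0.16, Cdc20 at -1.83, Cenpa at -2.33, Kif20a at -1.01 and Smc4 at -2.44. All 11 were mitotic genes and the array was the highest in each. The others were Kif20a on Neo replicate 2 at -3.03, Kif23 on HDAC4 replicate 3 at -4.02, Mki67 on Neo replicate 3 at -4.07, Prim1 on HDAC4 replicate 4 at -2.82 and Pcna on Neo replicate 1 at -1.70. For Foxm1, the contrast of array 1 with the others gave an interaction with group of -3.66, which rests on 1 value, Neo replicate 1 at 0.96.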

How the results depend on the processing

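The number of arrays limits precision, and missing values have no stated cause. Between HDAC4 and Neo, 0 of the 54 genes were called over all 8 arrays and under every alternative but 1: without both arrays numbered 1, 1 gene was called. With the replicate block, the fit that pairs arrays by number, 8 features and none of the 54 genes were called. There 11 of the 54 genes had an unadjusted p under 0.05 in limma, as did 1744 of all 14734 features. The count over all features, 22 by limma, was 1 with values at the reference floor left out, 0 to 86 without single arrays, 105 with number 1 as a batch and 318 without both arrays numbered 1. Single arrays moved the mitotic median between 0.01 and 0.38 and the S-phase median between 0.08 and 0.33. Leaving out single arrays gave -0.03 to 0.13 for Mki67, -0.20 to 0.09 for Pcna and -0.02 to 0.43 for Top2a, and Mki67 was at -0.07 without both arrays numbered 1.

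On the arrays numbered 1 against the others, the 25 called genes became 38 with quantile normalization (all 25 shared), with 12 S-phase genes and an S-phase median of 0.63. Single arrays moved the count between 13 and 25, the mitotic calls between 9 and 21, the S-phase calls between 2 and 5, the genes called lower between 0 and 1, the mitotic median between 0.41 and 1.0, all called features between 1691 and 3257, and Mki67 between -0.14 and 0.23. With each probe on its own, 1 was called lower. Pola1 lost its call with the mean over all its probes (0.50, adjusted p = 0.112 in limma). Without single arrays, Bub3 lost its call in 7 of 8 fits, Ccne2 in 6, Tk1 in 5 and Plk4 in 4. The low-ratio features and the fit without the Foxm1 value of Neo array 1 were chosen after seeing the data. The cause of these changes was not tested.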
